A study of Homo sapiens with 32 samples.

Results

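N6-methyladenosine (m6A) is a methylated form of adenosine found inside RNA. Its peaks were examined where they lay just outside annotated genes. A peak was a member when its summit fell in no RefSeq gene span of the human genome (hg38) and at most 10 kb from the nearest edge of one. Of the 180114 peaks in 4 lists, 5613 met this rule. They were 1295 and 1280 peaks in the 2 shMETTL3 lists and 1455 and 1583 peaks in the 2 shControl lists.

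The libraries are methylated RNA immunoprecipitations (MeRIP-seq) of the chromatin-associated, ribosome-depleted RNA of A375, an established human melanoma line. The shMETTL3 cells carried the genotype METTL3 knockdown, by a short hairpin RNA targeting METTL3, which is the enzyme of the complex that writes most m6A. The shControl cells were labelled WT, with a control hairpin. Both groups shared the cell line, the enrichment kit and a methylated spike-in RNA. Whether the replicates were separate cultures is not stated, so the spread between them may be technical, and no read depth is known for any list. The other 28 of the 32 samples of the series were not used here. Of the markers of the dedifferentiated melanoma state, 6 of 6 had loci inside the gene, against 1 of 6 of the pigment lineage, 1 of 5 for keratinocytes, 1 of 5 for fibroblasts and 0 of 5 for leukocytes. The knockdown itself could not be checked, since a list of peaks holds no level of METTL3 RNA.

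RNA polymerase II transcribes past the poly(A) site of a gene. The cleavage and polyadenylation complex cuts the transcript, and the RNA downstream is normally degraded while the polymerase is released. Where cleavage fails or release is late, readthrough RNA extends beyond the annotated end on the strand of the gene. Many promoters also fire away from the gene and give upstream antisense RNA, which the nuclear exosome and its adaptors remove. Both kinds of RNA are short-lived and stay on chromatin, the fraction from which these libraries were made.

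Overlapping peaks of the 4 lists (by 1 bp or more, strand by strand) were merged into loci, and a locus was placed by the summit of its strongest peak. This gave 66409 loci, of which 2190 lay within 10 kb outside a gene, 61131 in gene spans and 3088 farther away. Each near-gene locus was described by the gene with the nearest edge, 1285 genes in all. Where the strand of that gene was known, a locus was downstream sense (past the 3' end on the strand of the gene), downstream antisense, upstream antisense (before the start on the opposite strand) or upstream sense. These names describe position only. Of the near-gene loci, 1349 had a gene with a strand and 841 did not.

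Sequence could be shown for loci whose summit fell in the promoter window of the nearest gene, taken as 250 bases before to 50 bases after the transcription start (RefSeq, GRCh38.p14). The 6 windows below hold, among genes with a symbol other than a LOC or LINC number, the locus with the highest fold rank in each presence class of the upstream antisense and upstream sense groups, and are shown because they hold the start region that divides upstream from sense transcription. They read 5' to 3' on the strand of the gene. Capitals mark GGACT, the commonest form of the m6A consensus, and AGTCC, the same letters on the opposite strand.
ATP13A1: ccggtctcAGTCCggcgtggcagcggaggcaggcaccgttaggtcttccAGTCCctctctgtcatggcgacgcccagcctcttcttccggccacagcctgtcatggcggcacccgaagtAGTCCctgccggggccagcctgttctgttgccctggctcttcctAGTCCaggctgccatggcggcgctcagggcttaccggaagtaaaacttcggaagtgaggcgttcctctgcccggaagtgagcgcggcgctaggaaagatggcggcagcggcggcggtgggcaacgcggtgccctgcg
GPBP1: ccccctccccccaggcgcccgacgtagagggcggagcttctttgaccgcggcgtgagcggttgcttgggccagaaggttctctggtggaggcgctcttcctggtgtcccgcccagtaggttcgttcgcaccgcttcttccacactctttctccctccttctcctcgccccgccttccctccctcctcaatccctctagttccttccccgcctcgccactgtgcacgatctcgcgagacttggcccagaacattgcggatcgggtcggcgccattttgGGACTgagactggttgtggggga
ANTKMT: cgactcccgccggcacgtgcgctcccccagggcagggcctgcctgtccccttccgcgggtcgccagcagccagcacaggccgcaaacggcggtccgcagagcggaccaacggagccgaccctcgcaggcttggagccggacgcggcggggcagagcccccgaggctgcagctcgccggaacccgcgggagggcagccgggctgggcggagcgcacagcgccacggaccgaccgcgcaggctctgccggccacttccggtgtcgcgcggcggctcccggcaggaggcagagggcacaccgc
TMEM44-AS1: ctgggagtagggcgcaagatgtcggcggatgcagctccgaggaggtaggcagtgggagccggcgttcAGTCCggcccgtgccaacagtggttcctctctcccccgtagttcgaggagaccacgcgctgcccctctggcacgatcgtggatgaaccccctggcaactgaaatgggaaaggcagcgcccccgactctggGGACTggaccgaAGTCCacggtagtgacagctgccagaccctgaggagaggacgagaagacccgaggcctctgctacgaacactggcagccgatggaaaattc
ZNF451: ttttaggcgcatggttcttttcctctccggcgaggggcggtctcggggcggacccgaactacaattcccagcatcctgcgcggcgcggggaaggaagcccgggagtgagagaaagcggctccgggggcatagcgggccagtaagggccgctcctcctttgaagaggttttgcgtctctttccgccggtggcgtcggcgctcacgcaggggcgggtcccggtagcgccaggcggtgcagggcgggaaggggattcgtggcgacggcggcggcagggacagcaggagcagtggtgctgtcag
TLR4: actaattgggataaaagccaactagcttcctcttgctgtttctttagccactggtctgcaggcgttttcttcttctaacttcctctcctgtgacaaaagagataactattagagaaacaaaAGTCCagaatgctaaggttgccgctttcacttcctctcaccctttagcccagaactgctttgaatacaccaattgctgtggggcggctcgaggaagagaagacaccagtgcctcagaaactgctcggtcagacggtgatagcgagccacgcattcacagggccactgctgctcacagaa

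The ATP13A1 window is chr19:19663627-19663926 on the minus strand, and its antisense locus was in all 4 lists with the summit at base 63 of the window. ATP13A1, an ATPase of the endoplasmic reticulum, had 4 copies of the motif on the strand of the locus and 0 on the strand of the gene. The GPBP1 window is chr5:57173809-57174108 on the plus strand, with a knockdown-only antisense locus whose summit was at base 247, and it held 0 copies on the strand of the locus and 1 on the strand of the gene. The ANTKMT window is chr16:720896-721195 on the plus strand, with a control-only antisense locus and 0 copies on either strand. The TMEM44-AS1 window is chr3:194584018-194584317 on the plus strand, with an upstream sense locus in all 4 lists, 1 copy on the strand of the locus and 2 on the other. The ZNF451 window is chr6:57089938-57090237 on the plus strand, with a knockdown-only upstream sense locus and 0 copies on either strand. The TLR4 window is chr9:117704153-117704452 on the plus strand, with a control-only upstream sense locus, 0 copies on the strand of the locus and 1 on the other.

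Across all such loci, the motif was counted on each strand of the window. Of the 29 windows with an upstream antisense summit, 15 (51.7%) held GGACT on the strand of the locus and 6 (20.7%) on the strand of the gene. Of the 64 windows with an upstream sense summit, 20 (31.3%) held it on the strand of the locus and 11 (17.2%) on the other. Among all 34943 promoter windows of the table, 25.2% held GGACT on the strand of the gene and 25.4% on the other strand. The windows of upstream antisense loci had a median GC content of 62% and those of upstream sense loci 65.2%, against 58.7% over all windows. The motif matches are a description of the letters and were not tested as sites.

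Near-gene loci were sparse for the length of sequence they covered. Counted per strand, they occurred at 2.61 loci per Mb, against 18.2 in gene spans and 1.56 beyond 10 kb of any gene. The density depended on side and strand. Past the 3' end on the strand of the gene it was 8.89 loci per Mb in the first 500 bp, 7.82 from 0.5 to 1 kb, 8.29 from 1 to 2 kb, 5.27 from 2 to 5 kb and 3.62 from 5 to 10 kb. The downstream antisense side gave 2.22 loci per Mb in the first 500 bp and 1.07 from 5 to 10 kb. Upstream antisense loci were dense at the start, with 12.5 loci per Mb in the first 500 bp, 7.31 from 0.5 to 1 kb and 2.54 from 1 to 2 kb. Upstream sense loci had 12.6 loci per Mb in the first 500 bp and 2.39 in the next.

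**Figure D1:**
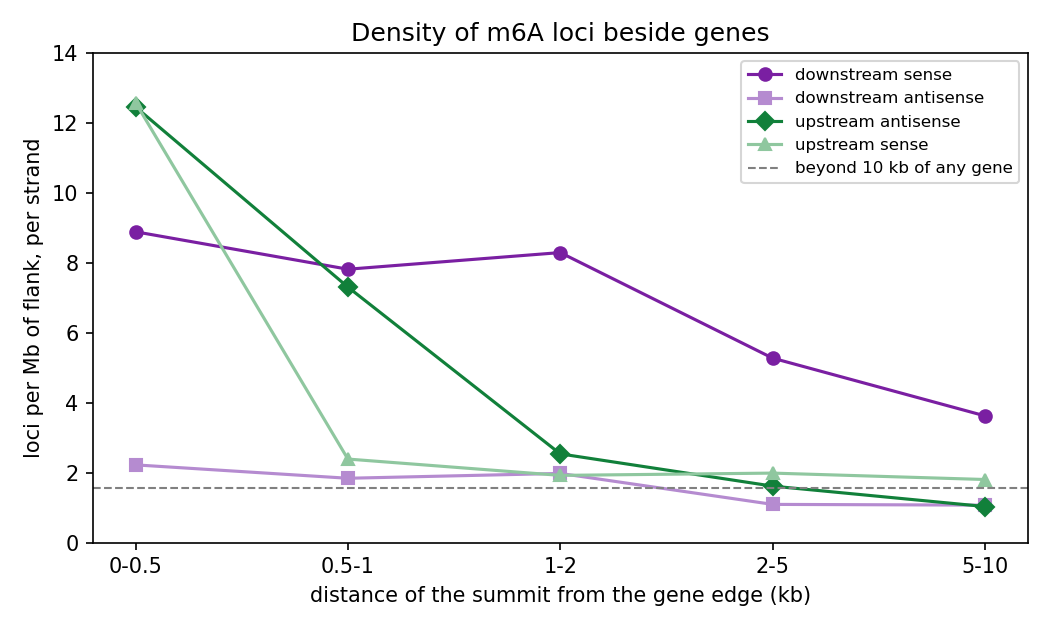
Density of m6A loci beside genes with a known strand (loci per Mb of flank, per strand) against the distance of the summit from the gene edge (kb), for the 4 combinations of side and strand. The downstream sense line stays at 3.62 or more out to 10 kb, both upstream lines start near 12.5 and drop within 2 kb, and the dashed line marks 1.56 loci per Mb beyond 10 kb of any gene.

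By number, downstream sense was the most frequent class. It held 639 of the 1349 loci with a stranded gene (47.4%, 95% Wilson interval 44.7% to 50.04%; these intervals cover counting error only) beside 390 genes. Downstream antisense held 156 loci, upstream antisense 277 and upstream sense 277. The median distance to the gene was 2409 bp for downstream sense loci, 2610 bp for downstream antisense, 790 bp for upstream antisense and 1810 bp for upstream sense. A part of the loci could belong to another RNA: 193 of the 639 downstream sense loci and 113 of the 277 upstream antisense loci had a second gene within 10 kb. Of all near-gene loci, 143 reached into a gene span with an edge, 53 of them upstream sense.

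The nearest gene was protein-coding for 957 loci, a lncRNA for 581, a pseudogene for 446 and a transcribed pseudogene for 116. Another 54 loci lay nearest to a miRNA gene, whose host transcripts usually reach beyond the annotated hairpin. The 841 loci whose gene had no strand included most of those beside pseudogenes and were not assigned to a side.

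The comparison asked which of these loci were present with METTL3 knocked down and which without. Near-gene peaks took 2.94% and 2.98% of the shMETTL3 lists and 3.21% and 3.32% of the shControl lists. The groups did not overlap: the mean was 2.96% ± 0.0303 in shMETTL3 and 3.26% ± 0.0781 in shControl (SD, n = 2 each), a difference of -0.31 percentage points. The exact permutation test (two-sided) had p = 0.33. With 2 libraries in each group it cannot go lower, so no difference between libraries could reach 0.05 here. Fold enrichment at the summit is the authors' own value, and its percentiles were taken within each list. Raw folds were set against each other across lists to choose the strongest peak of a locus. The cut at a fold of at least 4, used below, was also the same for every list. Its median over near-gene peaks was 3.97 and 3.93 in the shMETTL3 lists and 3.84 and 3.58 in the shControl lists, against 3.92 and 3.93, and 3.84 and 3.65, for peaks in genes. Near-gene peaks were called with lower confidence than peaks in genes. Their median −log10 q was 24.3 and 23.6 in shMETTL3 and 25.1 and 25.1 in shControl, against 30.0 and 30.1, and 29.6 and 30.6, in genes.

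A locus was called knockdown-only when both shMETTL3 lists and neither shControl list held a peak there, and control-only in the reverse case. Of the 953 near-gene loci in both shMETTL3 lists, 222 were knockdown-only (23.3%, interval 20.7% to 26.1%), where the share over all loci was 18.9%. Of the 1173 near-gene loci in both shControl lists, 402 were control-only (34.3%, 31.6% to 37.0%), where the share over all loci was 22.6%. In gene spans the shares were 18.7% knockdown-only and 22.1% control-only. Beyond 10 kb they were 21.9% and 25.6%. Just inside the limit, from 8 to 10 kb, 19 of 93 loci (20.4%) were knockdown-only and 29 of 100 (29%) control-only, and just outside it, from 10 to 12 kb, 16 of 79 (20.3%) and 29 of 99 (29.3%). A further 642 near-gene loci were in all 4 lists and 924 were in other combinations. The number of loci is not a number of replicates, and no test was made over loci. Peak lists cannot tell less methylation from less RNA, and the part of RNA level in any of these shares was not tested.

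The 2 lists of a group shared more near-gene loci with each other than with the other group. Loci shared over loci in either list came to 0.662 between the shMETTL3 lists and 0.699 between the shControl lists. Across groups the value was 0.408 to 0.421. Over all loci the same measure was 0.676, 0.711 and 0.495 to 0.498.

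Of the 4 classes of side and strand, downstream sense and upstream antisense had close control-only shares. Of all downstream sense loci, 54 of 241 (22.4%, 17.6% to 28.1%) were knockdown-only and 151 of 357 (42.3%, 37.3% to 47.5%) control-only. Of the loci downstream sense of a protein-coding gene, 24 of 119 (20.2%, 13.9% to 28.3%) were knockdown-only and 116 of 221 (52.5%, 45.9% to 59.0%) were control-only. Past the ends of other genes the shares were 30 of 122 (24.6%) and 35 of 136 (25.7%). With the same split, downstream antisense loci of protein-coding genes gave 15 of 34 (44.1%, 28.9% to 60.5%) knockdown-only and 26 of 48 (54.2%, 40.3% to 67.4%) control-only. Upstream antisense loci of protein-coding genes gave 22 of 84 (26.2%) and 47 of 114 (41.2%, 32.6% to 50.4%), and upstream sense loci 21 of 79 (26.6%) and 15 of 69 (21.7%). The control-only intervals of the downstream sense and downstream antisense loci of protein-coding genes overlap. By library, loci downstream sense of protein-coding genes numbered 153 and 149 in the shMETTL3 lists and 256 and 306 in the shControl lists. The groups did not overlap, with a mean of 151 ± 2.83 in shMETTL3 and 281 ± 35.4 in shControl (SD, n = 2 each, exact two-sided permutation p = 0.33). The sizes of the whole lists did not overlap either, with 44108 and 42969 peaks in shMETTL3 and 45345 and 47692 in shControl. As a share of the near-gene loci of each list, loci downstream sense of protein-coding genes made 12.7% and 12.6% in shMETTL3 and 18.8% and 20.5% in shControl.

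The shares were also taken by the strength of the peaks. With peaks of a fold of at least 4 alone, 24 of 65 (36.9%) loci past protein-coding ends were knockdown-only and 33 of 79 (41.8%) control-only, where all loci gave 27.6% and 25.0%. When loci in both shControl lists were split into 5 classes of equal size by the lower −log10 q of the pair, the control-only share of downstream sense loci was 61.4% in the weakest class, then 56.3%, 33.3%, 29.0%, and 2 of 42 (4.76%) in the strongest. Loci in gene spans gave 38.8%, 31.4%, 23.5%, 12.9% and 4.70% in the same classes. The strongest class by q thus rests on 2 control-only loci. Split by fold percentile in the same way, the downstream sense share was 66.7% in the weakest class and 15 of 70 (21.4%) in the strongest. Gene spans gave 29.4% and 8.32%. The control-only share was thus lower in the strongest class than in the weakest, both past gene ends and in gene spans. By fold percentile the downstream sense share was above that of gene spans in both of these classes. By q the strongest class gave close shares, 4.76% and 4.70%. The classes held downstream sense loci of all gene types, not of protein-coding genes alone.

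**Figure D2:**
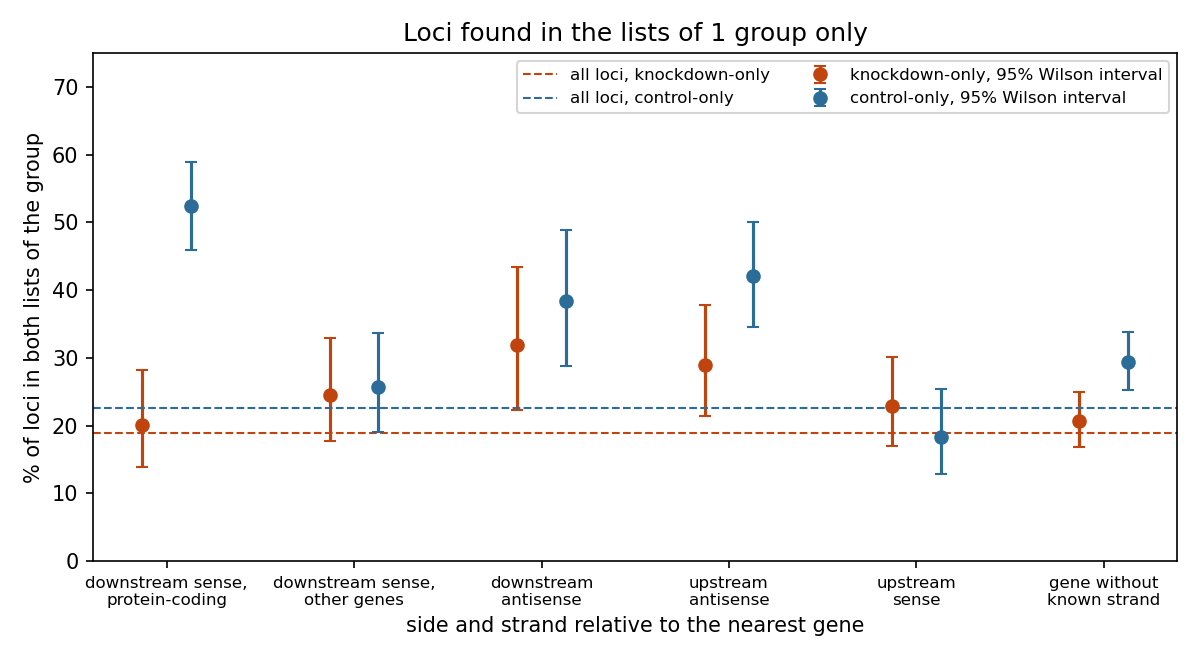
Share of loci found in the lists of 1 group only, as a percentage of the loci in both lists of that group, by side and strand relative to the nearest gene, with 95% Wilson intervals. Orange points are knockdown-only, blue points control-only, and the dashed lines mark all loci (18.9% and 22.6%). The control-only point is at 52.5% for downstream sense loci of protein-coding genes and lies below its line for upstream sense loci (18.3%); the classes other than downstream sense are not split by gene type here.

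The upstream classes went different ways. Of upstream antisense loci, 33 of 114 (28.9%, 21.4% to 37.9%) were knockdown-only and 64 of 152 (42.1%, 34.5% to 50.1%) control-only. In the first 500 bp the shares were 15 of 48 (31.3%) and 14 of 51 (27.5%), and from 1 to 2 kb they were 3 of 9 and 14 of 23 (60.9%). Of upstream sense loci, 35 of 153 (22.9%) were knockdown-only and 26 of 142 (18.3%) control-only. In their first 500 bp 15 of 66 (22.7%) were knockdown-only and 3 of 51 (5.88%, 2.02% to 15.9%) control-only. Of downstream antisense loci, 23 of 72 (31.9%, 22.3% to 43.4%) were knockdown-only and 33 of 86 (38.4%, 28.8% to 48.9%) control-only, and these intervals overlap. By library, upstream antisense loci numbered 145 and 146 in shMETTL3 and 169 and 182 in shControl, and upstream sense loci 189 and 188 in shMETTL3 and 165 and 179 in shControl. Each of these counts gave an exact permutation p of 0.33. As a share of the near-gene loci of each list, upstream antisense loci overlapped between the groups. The mean share was 12.2% ± 0.224 in shMETTL3 and 12.3% ± 0.137 in shControl (SD, n = 2 each, exact permutation p = 0.67). Upstream sense loci made 15.8% ± 0.155 in shMETTL3 and 12.1% ± 0.0715 in shControl, without overlap (exact permutation p = 0.33).

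**Figure D3:**
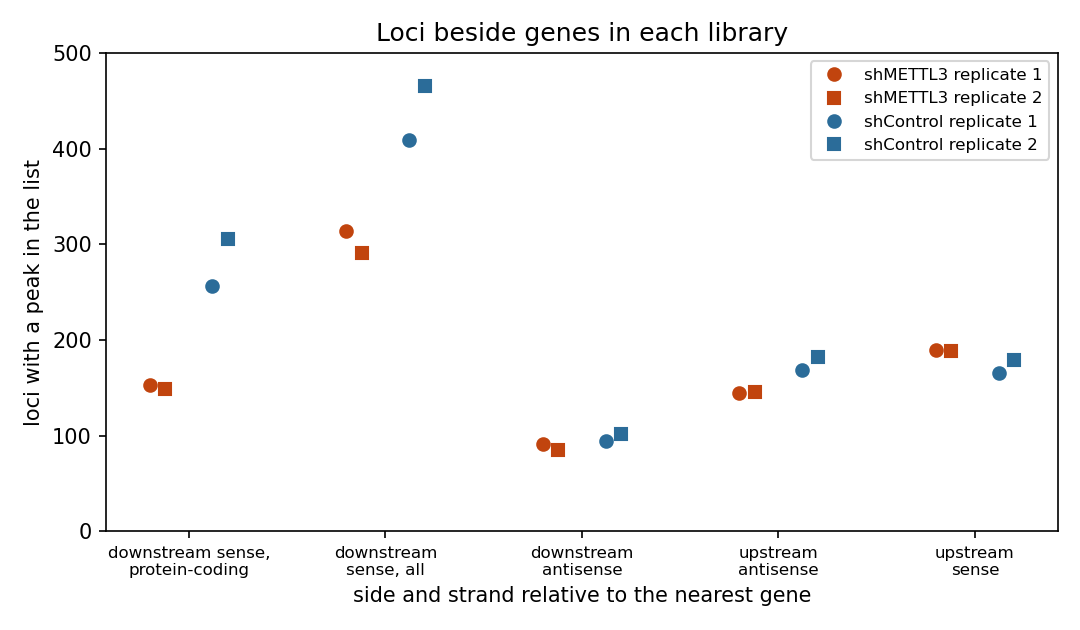
Number of near-gene loci with a peak in each list, by side and strand relative to the nearest gene, with orange for shMETTL3 and blue for shControl, circles for replicate 1 and squares for replicate 2. Loci downstream sense of protein-coding genes number 153 and 149 in shMETTL3 against 256 and 306 in shControl, while upstream sense loci are higher in shMETTL3 (189 and 188) than in shControl (165 and 179).

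The share changed at the annotated gene end. In the last 500 bp inside protein-coding genes, on the strand of the gene, 180 of 914 loci (19.7%, 17.2% to 22.4%) were knockdown-only and 135 of 888 (15.2%, 13.0% to 17.7%) control-only. In the first 500 bp past the end 1 of 15 (6.67%, 1.19% to 29.8%) was knockdown-only and 19 of 35 (54.3%, 38.2% to 69.5%) control-only. From 1 to 2 kb inside the end the shares were 17.5% and 15.9%. From 1 to 2 kb past it they were 6 of 23 (26.1%) and 33 of 54 (61.1%, 47.8% to 73.0%). From 5 to 10 kb past the end they were 6 of 29 (20.7%) and 17 of 41 (41.5%).

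**Figure D4:**
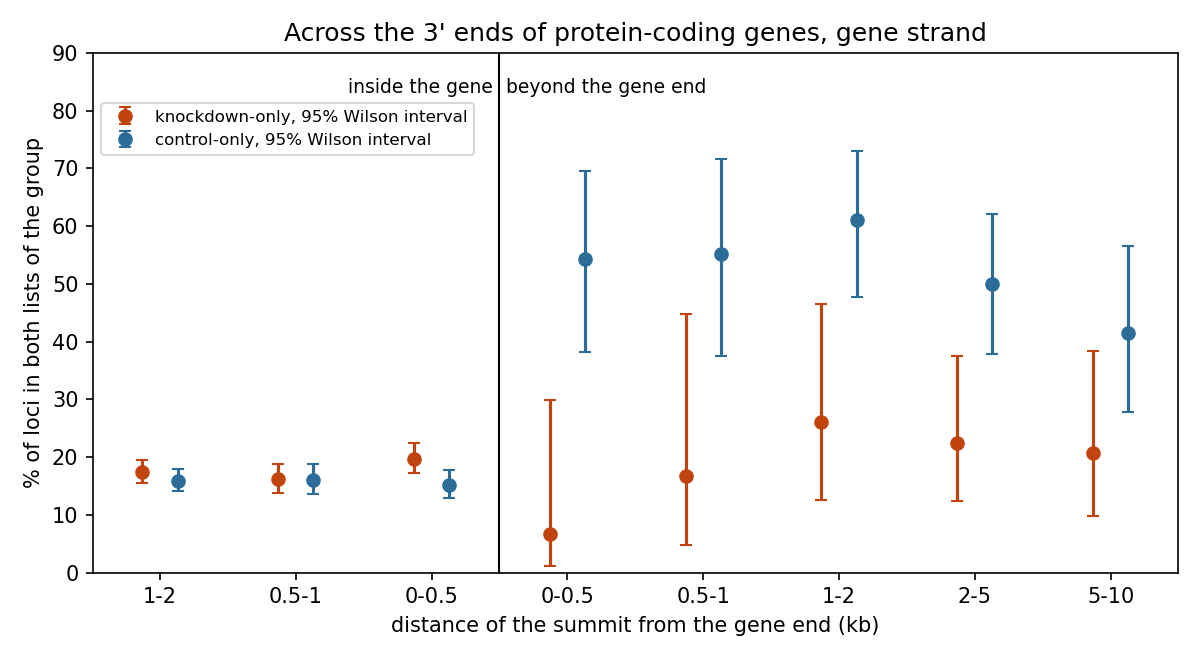
Share of loci in 1 group only around the 3' ends of protein-coding genes (percent of the loci in both lists of the group, 95% Wilson intervals) against the distance of the summit from the gene end (kb), with the gene to the left of the line. Control-only loci (blue) make 15.2% to 16.04% in the last 2 kb of the gene and 41.5% to 61.1% beyond it, while knockdown-only loci (orange) make 16.1% to 19.7% inside and 6.67% to 26.1% beyond.

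Inside the same genes the control-only share was lower than past their ends. For 144 protein-coding genes with loci of both kinds in both shControl lists, 110 of 203 loci past the end (54.2%, 47.3% to 60.9%) were control-only, against 114 of 532 (21.4%, 18.2% to 25.1%) inside the gene. The share was higher past the end in 87 of these genes, higher inside in 19 and equal in 38. In 39 of them every locus past the end and no locus inside was control-only, and the reverse was found in 0. The knockdown-only shares of 69 such genes were 23 of 110 (20.9%) past the end and 20 of 185 (10.8%) inside, higher past the end in 18 genes and inside in 14. Of the 125 genes beside the 151 control-only downstream sense loci of all gene types, 98 had at least 1 locus inside the gene in all 4 lists. The same held for 82 of the 115 genes beside downstream sense loci in all 4 lists, and for 30 of the 48 beside knockdown-only ones.

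TMEM39A, a membrane protein of the endoplasmic reticulum, had the highest-ranked control-only locus past a gene end. It lay 836 bp beyond the gene at chr3:119427877-119428779 on the minus strand, with no peak in either shMETTL3 list and folds of 6.67 and 6.70 in shControl. A second locus 1888 bp out had a fold of 3.70 in shMETTL3 replicate 1, no peak in shMETTL3 replicate 2, and folds of 7.42 and 6.06 in shControl. Inside the gene 1 of the 3 loci in both shControl lists was control-only. PIK3CB, a catalytic subunit of phosphoinositide 3-kinase, had a control-only locus 3899 bp past its end at chr3:138648511-138649636 on the minus strand, with folds of 6.17 and 6.05 in shControl, while 0 of its 2 own loci in both shControl lists were control-only. The other locus named by the ranking was by PECAM1, an adhesion molecule of endothelial cells and platelets, at chr17:64390969-64391378 on the plus strand, with folds of 7.68 and 6.23 in shControl. The strand of PECAM1 was not in the reference used and was inferred from its peaks as plus. On that strand, 3 of the 3 loci inside the gene in both shControl lists were control-only too. The gene is known to run on the minus strand, so this locus would lie on the antisense side of its start, and its class is uncertain.

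Fewer and partly uncertain loci led the knockdown-only class past gene ends. The locus 450 bp past OR2W3, an olfactory receptor gene, had folds of 6.46 and 8.69 in shMETTL3 and no peak in shControl. The 1 locus inside OR2W3 was knockdown-only too. The locus 8760 bp past MIR4712 had folds of 6.76 and 6.50 in shMETTL3, and a second one 9693 bp out was also knockdown-only. The highest-ranked locus of the class lay 236 bp past the pseudogene LSP1P4, with folds of 8.93 and 8.98 in shMETTL3. LSP1P4 belongs to a family of near-identical copies and its strand was inferred, so the assignment is uncertain.

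Among loci in all 4 lists, the highest-ranked lay past SLFN12, a gene of the Schlafen family. It lay 1274 bp out at chr17:35409242-35410145 on the minus strand, with folds of 13.1 and 12.4 in shMETTL3 and 9.55 and 11.7 in shControl. A locus 77 bp past KANTR had folds of 10.7 and 11.1 in shMETTL3 and 9.74 and 8.49 in shControl, and reached into the gene span. A locus 6539 bp past ZNF492, a zinc finger gene, had folds of 8.42 and 10.3 in shMETTL3 and 8.91 and 9.39 in shControl.

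Some genes carried a row of loci past the end. Downstream sense loci in both lists of at least 1 group lay by 282 genes, of which 187 had 1, 62 had 2 and 33 had 3 or more. ZNF112, a zinc finger gene of chromosome 19, had the longest row with 9 loci from 1722 to 9579 bp past its end, of which 6 were in all 4 lists and 3 in other combinations. ZNF492 had 6 loci from 3519 to 8212 bp, 5 of them in all 4 lists and 1 knockdown-only. The 5 loci past CECR7, a noncoding RNA gene, comprised 1 knockdown-only, 2 control-only and 2 in all 4 lists. All 4 loci past ANKRD18A and 3 of the 4 past ICA1-AS1 were in all 4 lists. POTEF also had 3 of 4 loci in all 4 lists, and since the POTE family has near-identical copies its loci are uncertain. The longest rows were thus mostly present in both groups.

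**Figure D5:**
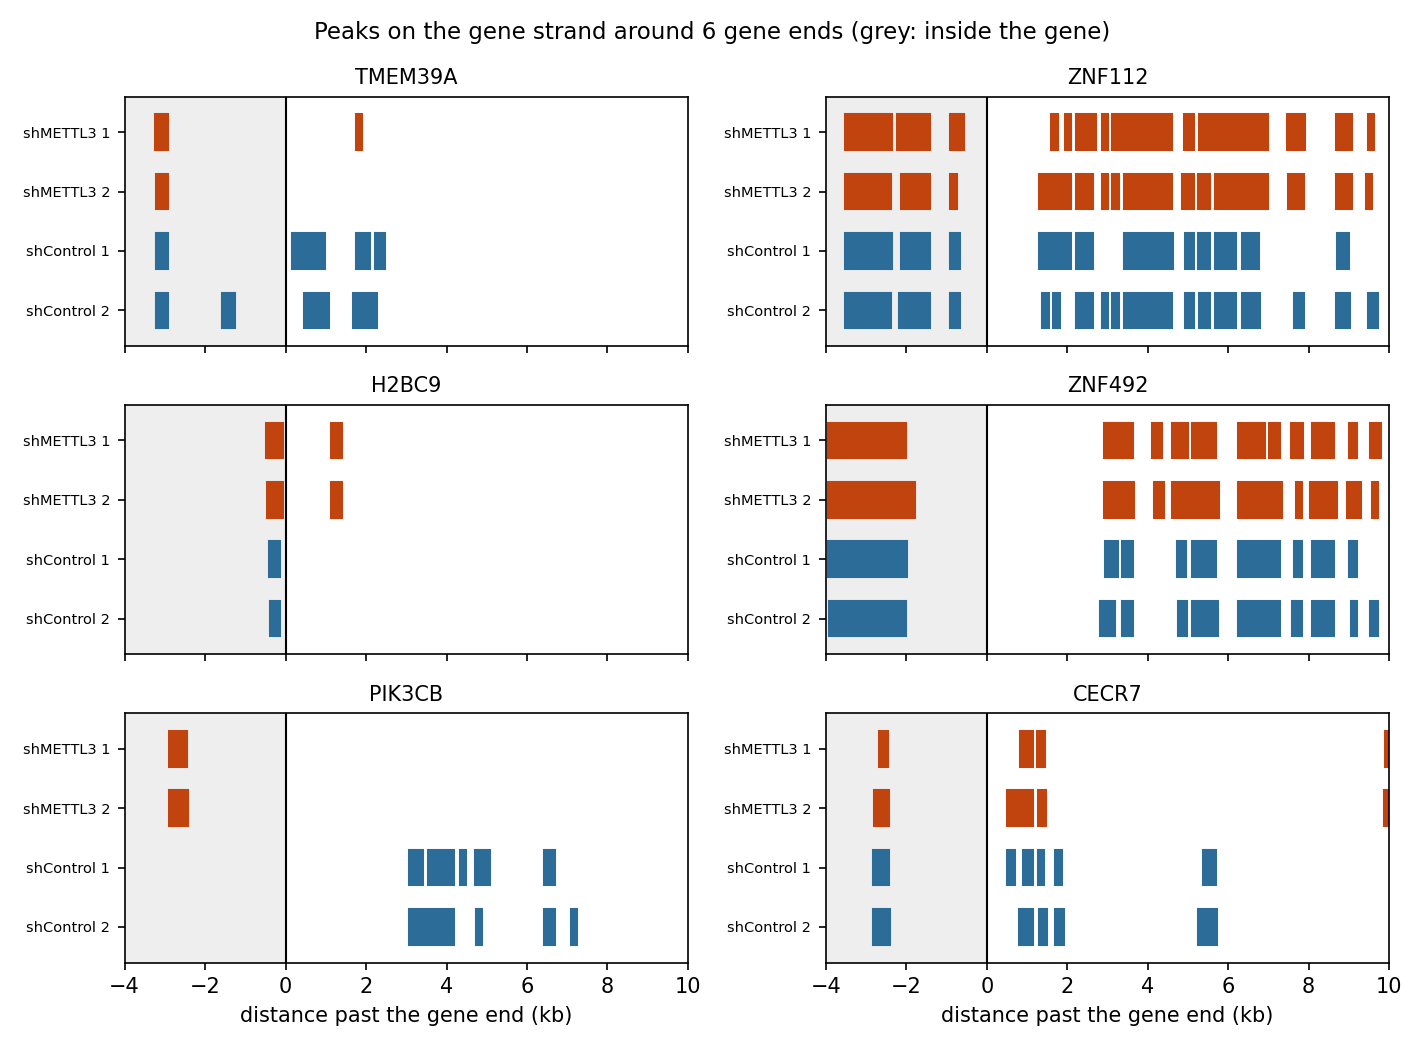
Peaks on the strand of the gene in each list around the 3' ends of 6 genes, against the distance past the gene end (kb), with the inside of the gene in grey, orange for shMETTL3 and blue for shControl. Peaks nearer to another gene are drawn too. Past TMEM39A and PIK3CB peaks stand in both shControl lists, with 1 shMETTL3 peak past TMEM39A, past H2BC9 in the shMETTL3 lists alone, and past ZNF112 and ZNF492 in all 4 lists.

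On the upstream antisense side, the control-only loci with the highest ranks lay by AIG1, PRRC2B and FANCA. AIG1 codes for a lipid hydrolase, and its antisense locus 5092 bp before the start had folds of 7.18 and 7.87 in shControl. PRRC2B, an RNA-binding protein, had a control-only antisense locus 1076 bp out with folds of 7.32 and 5.67 in shControl, and a second one 504 bp out that was in all 4 lists, with folds of 4.28 and 5.53 in shMETTL3 and 3.35 and 4.55 in shControl. FANCA, of the Fanconi anaemia complex for repair of DNA crosslinks, had a control-only one 1394 bp out with folds of 6.30 and 5.30 in shControl. Of the loci inside FANCA in both shControl lists, 2 of 2 were control-only too, against 1 of 2 inside AIG1 and 5 of 24 inside PRRC2B. The 3 named knockdown-only loci lay closer to the start. They were 4 bp from GPBP1 (folds of 5.84 and 5.29 in shMETTL3, reaching into the gene), 442 bp from CEP43, a centrosomal protein (5.02 and 4.73), and 495 bp from TRAPPC8, of a vesicle-tethering complex (4.91 and 4.55; strand inferred).

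The upstream antisense loci with the highest ranks in all 4 lists lay 332, 452 and 188 bp before ZNF234, AJUBA and ATP13A1. Their folds were 10.7 and 10.9 in shMETTL3 against 8.97 and 7.68 in shControl for ZNF234. For AJUBA, a LIM-domain adaptor of cell junctions, they were 9.004 and 9.45 in shMETTL3 and 8.02 and 8.38 in shControl. For ATP13A1, whose window with 4 motifs is printed above, they were 9.48 and 8.02 in shMETTL3 and 7.53 and 7.37 in shControl.

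In the other 2 classes, LRRC34 had the highest-ranked control-only downstream antisense locus (5.27 and 6.06 in shControl). MYNN has an edge 1933 bp from that summit. CD96, a lymphocyte receptor gene, had the knockdown-only one (5.07 and 5.15 in shMETTL3). The downstream antisense locus by ZFAND2A-DT in all 4 lists had folds of 9.30 and 6.69 in shMETTL3 and 5.62 and 10.6 in shControl. Upstream sense, KIRREL1, an adhesion protein of the nephrin-like family, had a knockdown-only locus 251 bp before its start (7.78 and 8.99 in shMETTL3). CDH11, the mesenchymal cadherin-11, had a control-only locus 2224 bp before its start with folds of 11.4 and 10.6 in shControl. CDH11 also had control-only loci inside, 7 of the 11 in both shControl lists. The miRNA gene MIR4477A had the upstream sense locus of highest rank in all 4 lists, 1730 bp out, with folds of 8.19 and 8.99 in shMETTL3 and 7.38 and 7.11 in shControl.

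Near-gene loci were rare beside the genes of most of the lists examined. Immediate-early genes, which are switched on within minutes of a stimulus, had 5 such loci beside 5 genes. EGR1, an immediate-early zinc finger factor, had a control-only locus 1020 bp past its end with folds of 3.05 and 1.94 in shControl. IER5 had a control-only locus 6946 bp past its end with folds of 3.54 and 2.69 in shControl. None of the own loci of either gene was control-only. Histone genes, most of whose transcripts end in a stem-loop and not in a poly(A) tail, had 8 loci beside 8 genes, 6 of them downstream sense. Of these 8, 5 were in both shMETTL3 lists, and 3 of the 5 were knockdown-only. Only 2 were in both shControl lists, of which 0 were control-only, and 2 of the 8 were in all 4 lists. All near-gene loci gave 23.3% knockdown-only and 34.3% control-only, and these histone counts are too small to set against those shares. H2BC9 had a knockdown-only locus 1258 bp past its end with folds of 6.16 and 5.37 in shMETTL3, and H2BC17 one 795 bp past its end with folds of 4.02 and 2.30. H2BC5 had a knockdown-only locus 412 bp before its start, with the edge of the histone gene H1-4 at 594 bp. Inside histone genes 14 of 38 loci (36.8%) were knockdown-only and 3 of 22 (13.6%) control-only, where all gene spans gave 18.7% and 22.1%.

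The zinc finger ZNF genes had 77 near-gene loci beside 42 genes, of which 47 were downstream sense. Of those in both lists of a group, 4 of 47 (8.51%) were knockdown-only and 10 of 45 (22.2%) control-only, and 33 were in all 4 lists. All near-gene loci gave 23.3% and 34.3%, and all loci 18.9% and 22.6%. Past ZNF354B a control-only locus 1451 bp out had folds of 7.18 and 5.47 in shControl, and a second one 591 bp out had 3.37 and 2.94. The rows past ZNF112 and ZNF492 are part of this list.

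The genes whose products end transcripts or clear these RNAs were described by their own loci, since their RNA can carry m6A too. Over all gene spans 18.7% of loci were knockdown-only and 22.1% control-only. The cleavage and polyadenylation genes had loci in 25 of 25 genes, with 10 of 67 (14.9%) knockdown-only and 14 of 72 (19.4%) control-only. CPSF3, the endonuclease of that complex, had 3 of 4 loci control-only, and CPSF1 had 3 of 4, the highest counts of the list. Other members had none, among them WDR33 with 0 of 5 and FIP1L1 with 0 of 4. A further list held genes of Integrator and the restrictor complex, which stop early and noncoding transcription. It also held NCBP1, NCBP2, SRRT and PPP1R10, not all of which are subunits of either complex. The whole list gave 2 of 44 (4.55%) knockdown-only and 12 of 65 (18.5%) control-only. The nuclear exosome and its adaptors gave 6 of 65 (9.23%) and 9 of 71 (12.7%). ZC3H18, which links capped RNA to the exosome, itself had 4 upstream antisense loci between 904 and 3795 bp before its start. The one at 904 bp was control-only, with folds of 7.17 and 5.28 in shControl, and the other 3 were in all 4 lists. Heat shock genes gave 5 of 42 (11.9%) knockdown-only and 25 of 68 (36.8%) control-only inside the gene, 9 of them in HSPH1, and had 1 near-gene locus. Of a list of 24 small nuclear RNA genes, most of them spliceosomal, RN7SK alone had a locus. Its product, the 7SK RNA, regulates transcription elongation and is no part of the spliceosome. No gene of that list had a near-gene locus.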

How the data were processed

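The 4 peak lists were made per library by the authors, and the peak names show that each strand was called separately. Per the submitters' processing notes the build was hg38, and the tools were MACS2 2.2.7.1, a peak caller, HISAT2 2.1.0, SAMtools, Trim Galore 0.6.6 and Bowtie2 2.4.2, with no order given. The use of the input libraries and of the spike-in in calling peaks is not stated in the labels. The authors deposited a fold enrichment, a ratio, for each summit. They also deposited a p-value and a q-value per peak on a −log10 scale, with −log10 q of 2.00 as the lowest. The deposited score and the summit offset are the authors' as well, and the score was not used. Names of peaks in the shMETTL3 lists begin with a knockout prefix, against the label METTL3 knockdown.

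From these lists, peaks were placed against 59712 gene spans of a RefSeq table (GRCh38.p14, the build hg38) and merged into loci on the same strand with Python 3.11.15, pandas 2.3.3 and scipy 1.17.1. The spans have no exons, so untranslated and coding parts were not told apart. The strand came from RefSeq promoter and miRNA tables for 29076 genes. For 1117 more it was inferred from 3 or more loci that lay in that gene alone, 80% of them or more on 1 strand. Tried on genes with a known strand, that rule gave the known strand for 4844 of 4897 (98.9%). Of the near-gene loci, 205 rest on it, and 60 have a peak whose own summit is not near a gene. Values per library were tested by exact permutation, and shares have 95% Wilson intervals. The placing was tested on simulated peaks.

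Named loci were ranked by their fold percentile, taking the lower of the lists that define the presence class: 3 per class for downstream sense and upstream antisense, 1 for the other sides, the 6 genes with most downstream sense loci, and up to 2 members of each gene list, without LOC and LINC numbers. The members, lists and rules were chosen with earlier results of these data known. The alternatives comprised stricter folds and q-values, lists of equal length, reciprocal overlap, shorter distances, other spans or strands and leaving out each library.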

Additional observations from a re-analysis of the deposited data

How the results depend on the processing

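The difference in the share of peaks near genes, shMETTL3 minus shControl, was negative under the 11 alternatives that can change it, from -0.43 to -0.20 percentage points. Taken within replicate numbers, as a replicate block, it was -0.31 (exact sign-flip permutation p = 0.5). With 2 pairs that test cannot go lower, so it cannot decide on a difference. The deviations of same-numbered libraries from their group had a correlation of -0.0014. With 2 libraries in each group, both replicate numbers give this same value, so it cannot decide whether the numbers pair the libraries. The knockdown-only share of near-gene loci was 31.4% with a fold of at least 4 and 29.0% with reciprocal overlap of 50%, and leaving out 1 replicate gave 26.6% to 31.2%. Their control-only share was 39.7% with reciprocal overlap and 39.0% to 42.2% without 1 replicate. The shares over all loci also moved. Without 1 replicate they were between 22.8% and 26.5% knockdown-only and between 28.4% and 30.1% control-only. With reciprocal overlap of 50% they were 24.4% knockdown-only and 28.2% control-only, and with a fold of at least 4 they were 27.6% and 25.0%. Of near-gene loci whose gene has a strand, the downstream sense share was 43.4% with gene spans other than pseudogenes and 41.6% within 2 kb. Of downstream sense loci, 37.3% were knockdown-only with a fold of at least 4 and 25.0% to 32.6% without 1 replicate, and 49.4% were control-only within 2 kb and 47.1% to 50.2% without 1 replicate. Past protein-coding ends, 36.9% were knockdown-only with a fold of at least 4 and 21.8% to 29.0% without 1 replicate. The control-only share there was 44.9% with a −log10 q of at least 20, 41.8% with a fold of at least 4 and 55.6% to 59.4% without 1 replicate. With strands from the reference alone these shares were 19.1% and 49.2%. The knockdown-only and control-only shares of downstream sense loci were added after the data were seen. Without 1 replicate, presence or absence in that group was judged from 1 list, so those shares are not defined as the main ones are. The cause of the moves was not tested, and the unknown depth limits all counts.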
